A study of Sus scrofa with 6 samples.

Results

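The insulin-like growth factor (IGF) family was described here across porcine growth plate and articular cartilage and across chondrocyte cultures made from each. Members were all probe sets that the platform's annotation pairs with the ligand genes IGF1 or IGF2 or with a binding protein gene from IGFBP1 to IGFBP7. There were 22 such probe sets of 23999, for 6 genes of 6765. IGF2 had 13 probe sets, IGF1 had 3, IGFBP1 and IGFBP6 had 2 each, and IGFBP2 and IGFBP5 had 1 each. IGFBP3, IGFBP4 and IGFBP7 were not analysed here.

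IGF1 and IGF2 are secreted peptides that act mainly through the receptor tyrosine kinase IGF1R, which signals through PI3 kinase and AKT to growth and matrix synthesis. IGF2R binds IGF2 and carries it to the lysosome. Binding proteins hold the ligands outside the cell and slow or prolong their action, and proteases release the ligands by cutting them. In growing cartilage IGFs promote chondrocyte proliferation, hypertrophy and longitudinal bone growth, and in articular cartilage they promote matrix synthesis.

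The 6 groups included native growth plate cartilage, which drives bone elongation, and native articular cartilage, which covers joint surfaces. The others were chondrocytes isolated from each by collagenase and cultured to what the labels call day 10 or day 20 of differentiation. Both kinds of culture grew at 37 °C in DMEM/Ham's F12 with FBS and antibiotics, in 5% oxygen and 5% carbon dioxide, and received no further treatment. Each group was 1 array of total RNA from Sus scrofa. Animal number, age and breed, and whether RNA was pooled, are not stated in the sources used here, so no difference between 2 arrays has a replicate check.

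Values are linear signal intensities, written in the order native, day 10, day 20. Signals under 36.1, the 40th percentile of all signals, were treated as a floor, and folds against a signal under it are written "at least". Between 58.6% and 61.0% of probe sets lay above the floor on an array. The native articular array was least like the others: its mean r with them, across genes, was 0.889, and that of every other array was 0.930 to 0.939. All 6 measured markers of the chondrocyte list were above the floor on all 6 arrays, among them ACAN (6596 to 15883), COL2A1 (1164 to 2929) and SOX9 (76.8 to 982). Both tissues' cultures also carried fibroblast markers, whose values are given beside the results they move with. In total RNA, fewer cells of a type and less RNA per cell cannot be told apart.

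Of the 22 probe sets, 14 were above the floor on at least 2 arrays and 6 were above it on all 6. The 6 genes were each represented by their brightest probe set. IGF2, IGFBP5 and IGFBP6 were above the floor on every array. IGF1 and IGFBP2 entered the tests only through their day 20 arrays, and IGFBP1 only through the articular cultures, so their direction was partly fixed by the filter.

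**Figure D1:**
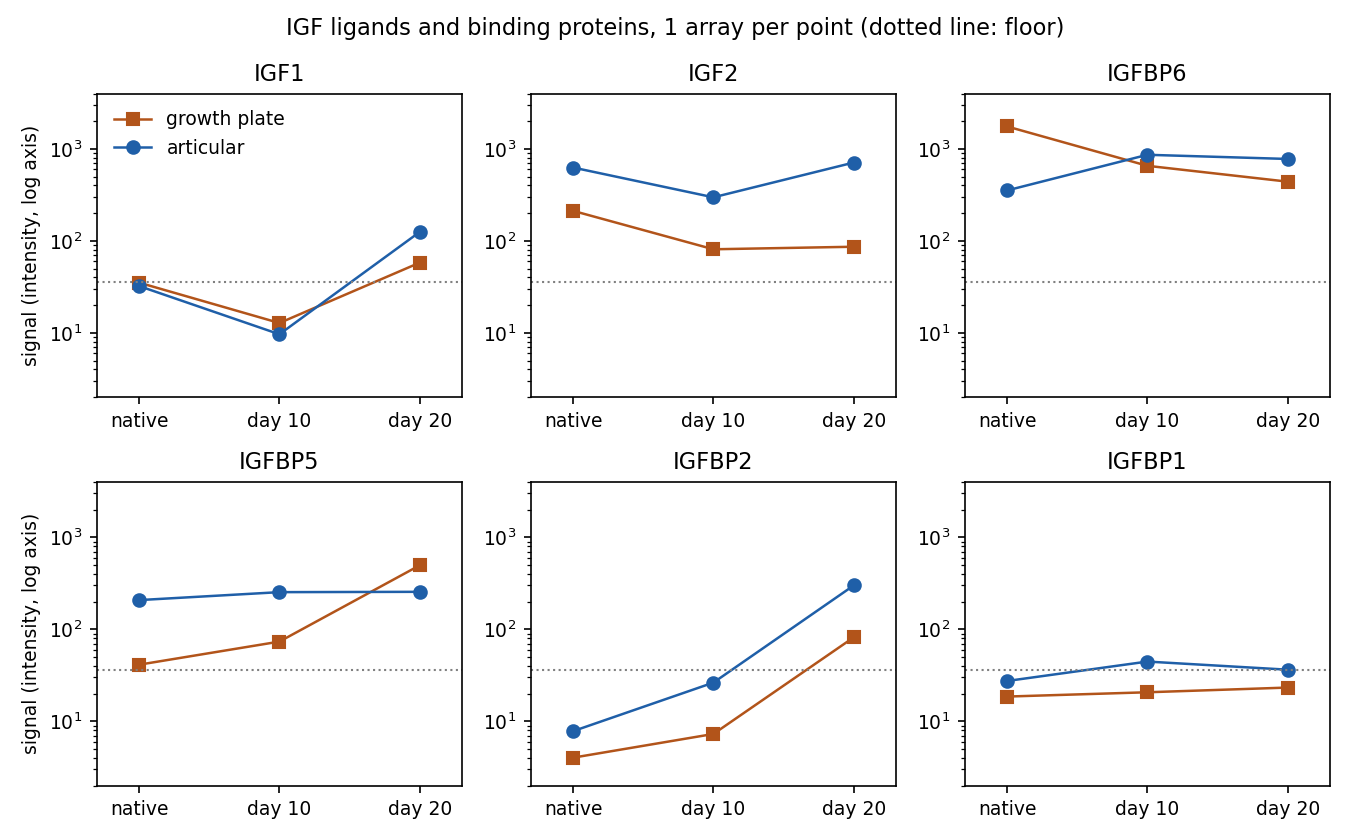
Signal intensity (log axis) of the 6 genes in native tissue, at day 10 and at day 20, with squares for growth plate and circles for articular samples, 1 array per point. The dotted line is the floor of 36.1; IGF2 was higher in articular samples at all 3 stages, and the IGFBP6 and IGFBP5 lines cross.

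IGF2, the ligand best known from fetal and juvenile growth, was higher in articular than in growth plate samples at every stage. Growth plate samples gave 212, 81.0 and 86.3, and articular samples gave 627, 297 and 710. The lowest articular signal lay above the highest growth plate signal. How many of all genes separate the tissues in this way was not counted. The articular signal was 2.96-fold higher in native tissue, 3.67-fold higher at day 10 and 8.23-fold higher at day 20. A limma model with a tissue and a stage term gave a growth plate minus articular log2 difference of -2.16 ± 0.37 (SE), with an unadjusted p of 0.00132 and an adjusted p of 0.255. It was not called at an adjusted p under 0.05 and a 2-fold change, and 3 of 5601 genes were (0.0536%). Those 3 were 2 higher and 1 lower in growth plate, against 4 and 4 with median centring of the arrays. At least 2-fold lower growth plate signals in all 3 pairs were seen for IGF2 and for 0.321% of all genes.

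The IGF2 call depended on the native arrays. Without the native growth plate array or without the native articular array, the difference came from the same 4 cultured arrays and was -2.46. The limma adjusted p was then 0.00116 and 0.00414, and 2.75% and 2.17% of all genes were called in those fits. They have 1 residual degree of freedom and are no separate check of each other.

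The other IGF2 probe sets did not all repeat the pattern. Of the 8 above the floor on at least 2 arrays, 4 were lower in growth plate at all 3 stages, 3 of them at least 2-fold lower at each. One set shared by several transcripts had the widest gap: growth plate gave 100.5, 21.8 and 47.4, and articular gave 506, 254 and 900.0. Its articular excess was 5.03-fold for native tissue and at least 7.03-fold at day 10, and its growth plate minus articular log2 difference at day 20 was -4.25. A set whose name marks probes that may also bind other sequences gave 100.4, 55.7 and 95.8 against 279, 149.9 and 285. These sets share the direction of the one used. A set above the floor on all arrays did not: growth plate gave 156, 141 and 117 and articular gave 139, 151 and 248, so its native signal was 1.12-fold higher in growth plate. A set close to the floor gave 27.3, 57.1 and 66.5 against 44.6, 28.6 and 3.46, higher in growth plate in both cultures. The 5 remaining IGF2 probe sets reached at most 46.6 on any array. Over the 6 arrays, Pearson's r to the set used was 0.986, 0.952, 0.661 and -0.743 for these 4 sets, in the order given. With the mean of all IGF2 probe sets in place of the brightest, the tissue difference was -0.68 on the log2 scale. That mean takes in the 5 remaining sets, whose signals at or near the floor could show little difference.

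**Figure D2:**
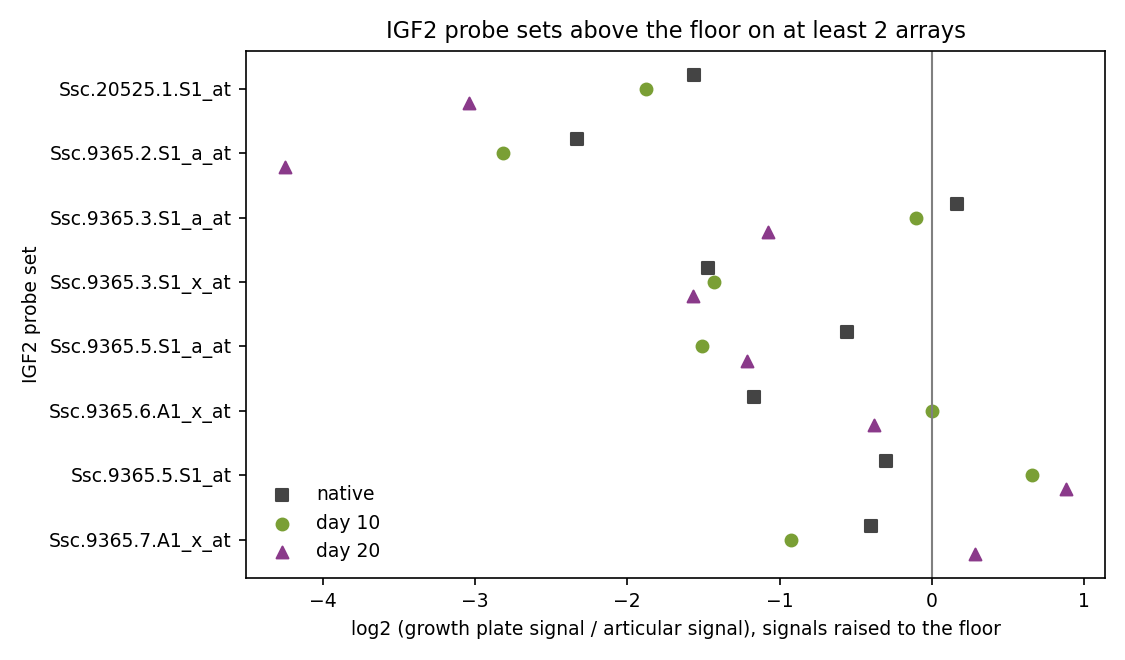
The log2 ratio of growth plate to articular signal for the 8 IGF2 probe sets above the floor on at least 2 arrays, with squares for native tissue, circles for day 10 and triangles for day 20. Points left of 0 are lower in growth plate; 4 of the 8 sets lie left of 0 at all 3 stages, and none lies right of 0 at all 3.

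Within each tissue, IGF2 was lower at day 10 than in native cartilage, by 2.62-fold in growth plate and 2.11-fold in articular samples. At day 20 the tissues differed in level against native. The growth plate signal was still 2.46-fold lower than native, while the articular signal was 1.13-fold higher than native and 2.39-fold higher than at day 10. The limma culture minus native difference was -0.90 ± 0.39, with an adjusted p of 0.280. The test of whether the culture response differed between tissues, a limma fit with the 2 culture days of a tissue as its replicates, gave -0.89 ± 0.89 and an adjusted p of 0.813.

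IGF1, the growth hormone-dependent ligand, was near or under the floor outside day 20. Its brightest probe set gave 35.1, 12.8 and 58.0 for growth plate, against 32.3, 9.65 and 125 for articular. Only the day 20 arrays of both tissues were above the floor, with articular 2.16-fold higher than growth plate. Day 20 exceeded day 10 at least 1.61-fold in growth plate cultures, and at least 3.46-fold in articular ones. The limma day 20 minus day 10 difference was 1.24 ± 0.37, with an unadjusted p of 0.0164 and an adjusted p of 0.264. Without the native growth plate array the limma adjusted p was 0.0323, and without the native articular array it was 0.0459, in fits that called 9.22% and 8.84% of genes between the days. IGF1 passed the filter through the day 20 arrays alone and its other arrays were raised to the floor, so these p-values give no support for a difference between the days. A second IGF1 probe set was above the floor only in the day 20 articular array, at 38.2, and the other lay under it on all 6 arrays. IGF1 levels in native cartilage were thus not measurable above the floor with these probe sets.

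IGFBP6, a binding protein with a marked preference for IGF2, had opposite differences between culture and native tissue in the 2 cartilages. Growth plate samples gave 1753, 655 and 440.3, and articular samples gave 353, 863 and 777. The highest signal of all was native growth plate and the lowest was native articular cartilage, and the 4 cultures lay between them. Growth plate cultures were 2.68-fold lower than native at day 10 and 3.98-fold lower at day 20. Articular cultures were 2.44-fold higher than native at day 10 and 2.20-fold higher at day 20. IGFBP6 was 1 of 9 genes of 5601 (0.161%) whose growth plate cultures both lay at least 2-fold below native while both articular cultures lay at least 2-fold above it. Both days of a tissue share its native array.

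Both IGFBP6 probe sets had this shape. The dimmer one gave 362, 124 and 87.8 for growth plate, against 81.3, 158 and 161 for articular, and its Pearson's r to the brighter set over the 6 arrays was 0.990. The growth plate signal was 4.96-fold higher in native tissue on the brighter set and 4.46-fold on the other. In culture the order was turned, with the articular signal 1.32-fold higher at day 10 and 1.77-fold higher at day 20 on the brighter set.

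The limma test of the difference between the tissues' culture responses gave -2.92 ± 0.53 on the log2 scale for IGFBP6, with an unadjusted p of 0.00423 and an adjusted p of 0.542. No gene was called in that test (0% of 5601; 38 genes, IGFBP6 not among them, without the filter on low signals), and it was chosen after these values were seen. On average over both tissues, the culture minus native difference was -0.25 ± 0.65 with a limma adjusted p of 0.854. The growth plate minus articular difference over the stages was 0.36 ± 0.61 with a limma adjusted p of 0.827. Without the native growth plate array the culture difference came from articular samples alone and was 1.21. Without the native articular array it came from growth plate samples alone and was -1.71. A lone native array gives no spread of native tissue.

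Fibroblast markers moved with IGFBP6 in part. The summed signal of the 4 measured markers of that list was 12229, 4772 and 14405 for growth plate, against 2403, 9413 and 14168 for articular, and all 4 were above the floor on every array. S100A4, a calcium-binding protein of motile cells, had 4953, 1368 and 2689 against 381, 1255 and 2226. THY1, a surface protein of fibroblasts, had 6583, 2894 and 8968 against 1818, 7416 and 10631. The collagen gene COL1A2 had 432, 381 and 2343 against 146, 585 and 838. COL3A1, another collagen gene, had 262, 129 and 406 against 58.0, 157 and 473. Unlike IGFBP6, the growth plate sum was not lower than native at day 20. Of the 4 markers, S100A4 alone lay below native in both growth plate cultures. Which cells gave these marker signals is not known from total RNA, and their part in the IGFBP6 values was not tested.

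IGFBP5, a binding protein that attaches to extracellular matrix and bone mineral, was lowest in native growth plate. Its single probe set gave 41.3, 73.6 and 497 for growth plate, against 208, 254 and 256 for articular. The articular arrays lay close together, while the growth plate arrays spanned the whole range. The articular signal was 5.04-fold higher in native tissue and 3.45-fold higher at day 10, and the growth plate signal was 1.94-fold higher at day 20. Growth plate at day 20 was 12.0-fold above native and 6.75-fold above day 10. In articular cultures day 20 was 1.23-fold above native and 1.01-fold above day 10. The limma day 20 minus day 10 difference was 1.38 ± 0.80 with an adjusted p of 0.482, and it was -0.12 without the day 20 growth plate array. The culture minus native difference was 1.25 ± 0.70 with a limma adjusted p of 0.368. It was 2.21 without the native articular array, from growth plate samples alone. Without the native growth plate array it was 0.29, from articular samples alone. The growth plate minus articular difference was -1.05 ± 0.66 with a limma adjusted p of 0.581. It was -0.41 without either native array, -0.69 without either day 10 array, -2.06 without either day 20 array and -0.19 with the floor at the 60th percentile.

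IGFBP2, a binding protein that is abundant in fetal life, was above the floor only at day 20, in both tissues. Its single probe set gave 4.03, 7.29 and 81.9 for growth plate, against 7.83, 26.4 and 300.1 for articular. Day 20 was at least 2.27-fold above native and above day 10 in growth plate, and at least 8.31-fold in articular cultures. The articular signal at day 20 was 3.67-fold that of growth plate. The limma day 20 minus day 10 difference, with signals under the floor raised to it, was 2.12 ± 0.53, with an unadjusted p of 0.00757 and an adjusted p of 0.214. The limma adjusted p was 0.00474 without the native growth plate array and 0.0100 without the native articular array, beside the 9.22% and 8.84% of genes called. As for IGF1, the filter fixed the direction and the floor removed the spread of the other arrays, so these p-values give no support for a difference. The culture minus native difference was 1.06 ± 0.46 with a limma adjusted p of 0.276. It was 1.53 without the native growth plate array, from articular samples alone. Without the native articular array it was 0.58, from growth plate samples alone, and the same limit holds. In the RefSeq annotation of the pig assembly Sscrofa11.1, IGFBP2 and IGFBP5 are neighbouring protein-coding genes. Their signals were highest in different tissues at day 20, IGFBP5 in growth plate and IGFBP2 in articular cultures.

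Some markers of other cell types were also higher at day 20. The summed signal of the 4 measured smooth muscle and pericyte markers was 12270, 18140 and 24670 for growth plate, against 5073, 21150 and 28901 for articular, with 3 or 4 of them above the floor on each array. The fibroblast collagen COL1A2 had 432, 381 and 2343 against 146, 585 and 838. ACTA2 and TAGLN, genes of the contractile cytoskeleton, made up most of each sum, while the pericyte marker RGS5 was 619 at day 10 and 34.4 at day 20 in articular cultures. The hypertrophic sum was 20213 at day 10 and 20212 at day 20 in growth plate, where IGFBP5 was 6.75-fold higher. Its members moved both ways between those days. IBSP, a bone matrix protein gene that made up most of the sum, went from 14034 to 15675, and MMP13 from 300 to 513. COL10A1 went from 2375 to 1655, ALPL from 3057 to 2287 and IHH from 448 to 82.1. In articular samples the sum was 191, 442 and 6158, nearly all of the last from IBSP (53.2, 309 and 5958). There COL10A1 was at 30.8 or less, while IGFBP5 was 254 and 256 in the cultures. The part of these markers in the results for day 20 was not tested.

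IGFBP1, a binding protein made mainly by liver and decidua, stayed at or near the floor. Its brighter probe set gave 18.6, 20.7 and 23.3 for growth plate, against 27.5, 44.7 and 36.5 for articular, and its other set was under the floor on all 6 arrays. No level of IGFBP1 in growth plate was measurable above the floor.

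**Figure D3:**
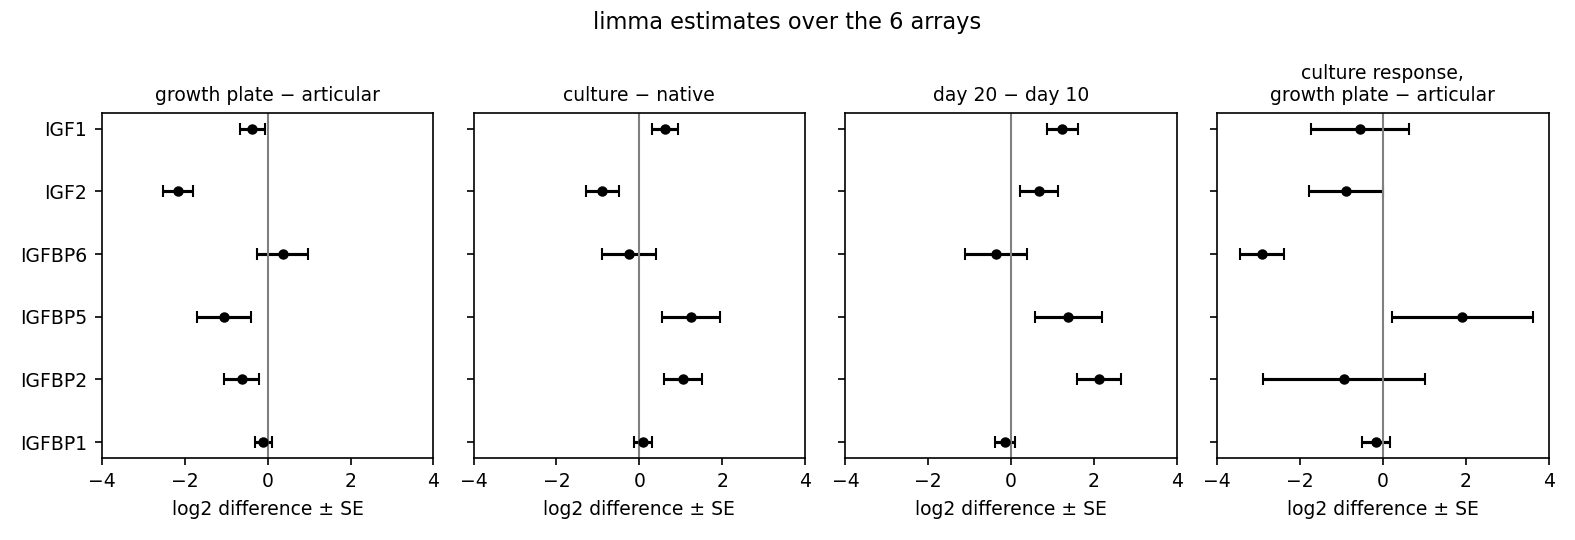
Log2 differences with their standard errors from limma over the 6 arrays, for growth plate minus articular, culture minus native, day 20 minus day 10, and the difference between the tissues' culture responses. IGF2 lies at -2.16 in the first panel and IGFBP6 at -2.92 in the last; none of the 6 genes was called in any panel.

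None of the 6 genes was called in the 3 limma contrasts. At an unadjusted p under 0.05, IGF2 alone differed between tissues and none differed between culture and native, where 597 and 1089 of 5601 genes did. Between the days 820 genes did, and no count of members is set against them, since IGF1 and IGFBP2 were tested only through their day 20 arrays. Over all genes 0% were called between culture and native and 0% between the days. The members' median log2 differences were -0.50, 0.35 and 0.96, beside -0.04, 0.06 and -0.02 over all genes. All 3 member medians rest in part on IGF1, IGFBP1 or IGFBP2, which passed the filter through culture arrays alone. The medians are therefore no test of the family.

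Counted pair by pair, at least 2-fold differences came to 3 of 6 genes between the native tissues, where 20.8% of all genes differed that much. Between the tissues at day 10 they came to 2 of 6, beside 7.32% of all genes, and at day 20 to 3 of 6, beside 6.91%. Against native growth plate they were 2 of 6 at day 10 (14.3% of all genes) and 4 of 6 at day 20 (10.3%). Against native articular cartilage they were 2 of 6 at day 10 (25.7%) and 3 of 6 at day 20 (23.8%). From day 10 to day 20 they were 2 of 6 in growth plate (13.7%) and 3 of 6 in articular cultures (11.4%), each of these higher at day 20. The share among members is not a test, because 3 of the 6 passed the filter through a few arrays.

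The rest of the pathway was described with a list of 54 genes of receptors, signalling, ligand release and IGF2 mRNA binding. Of these, 26 were measured and 19 were tested. None was called in any of the 3 limma contrasts. For tissue and culture, 2 and 1 had an unadjusted limma p under 0.05, where 597 and 1089 of 5601 genes did. No count is given for day, since GHR, the growth hormone receptor gene, was tested only through its day 20 arrays. The same arrays fixed its direction against native tissue, and GHR is not the 1 gene counted for culture. The list's median log2 differences were -0.06, -0.12 and -0.06 for tissue, culture and day.

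IGF1R, the main signalling receptor for both ligands, gave 748, 309 and 433 for growth plate, against 381, 187 and 260.2 for articular. Growth plate was 1.96-fold, 1.66-fold and 1.66-fold higher at the 3 stages. Day 10 was 2.42-fold below native in growth plate and 2.04-fold below it in articular samples. The tissue difference was 0.81 ± 0.25 with a limma adjusted p of 0.441, and the culture difference was -0.91 ± 0.26 with a limma adjusted p of 0.173. A second IGF1R probe set had 253, 412 and 225 against 273, 125 and 155, so the native tissue difference and the low growth plate signal at day 10 rest on 1 probe set. IGF2R, the clearance receptor for IGF2, stayed between 6.33 and 58.7. INSR, the insulin receptor, was above the floor only in native articular cartilage, at 72.7. GHR, the growth hormone receptor, was above it only at day 20, at 58.7 in growth plate and 58.0 in articular cultures. IGFALS, which forms the large serum complex with IGFs, was under the floor on all arrays.

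**Figure D4:**
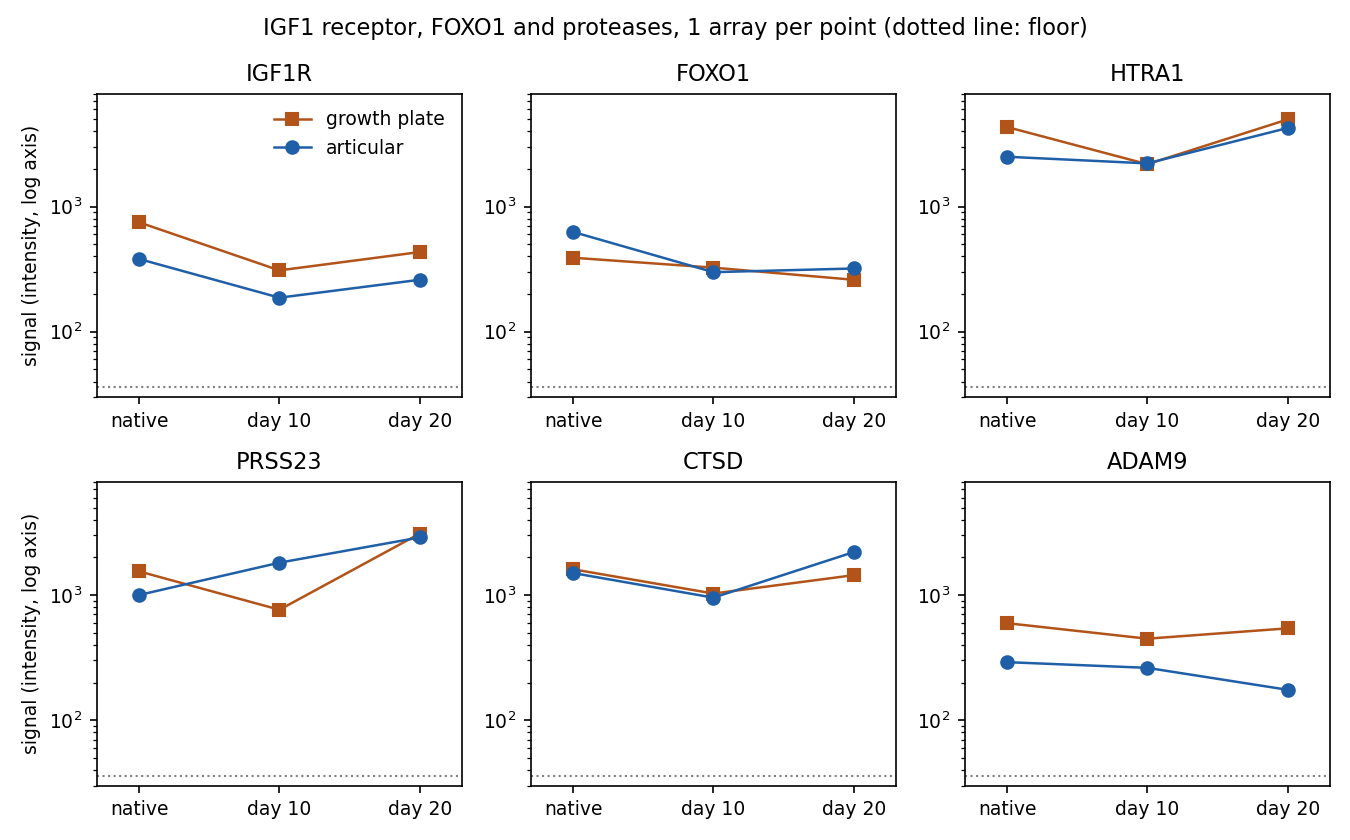
Signal intensity (log axis) of the receptor gene IGF1R, the transcription factor gene FOXO1 and 4 protease genes by stage, with squares for growth plate and circles for articular samples, 1 array per point. IGF1R was higher in growth plate at all 3 stages on this probe set, and HTRA1 and PRSS23 were higher at day 20 than at day 10 in both tissues.

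Of the named proteases of the list, HTRA1, PRSS23 and CTSD gave higher signals at day 20 than at day 10 in both tissues. PAPPA did not, and neither did ADAM9, which went from 262 to 175 in articular cultures. HTRA1, a secreted serine protease that cuts IGFBP5, gave 4318, 2179 and 4964 for growth plate, against 2499, 2212 and 4243 for articular. Day 20 was 2.28-fold and 1.92-fold above day 10, a difference of 1.06 ± 0.25 with a limma adjusted p of 0.197. PRSS23, a secreted serine protease, had 1545, 763 and 3095 against 1001, 1814 and 2885, a day difference of 1.35 ± 0.45 with a limma adjusted p of 0.296. CTSD, a lysosomal protease that can cut IGFBPs, had 1606, 1028 and 1441 against 1499, 953 and 2203. Without the native growth plate array, or without the native articular array, the day differences of HTRA1 and PRSS23 stayed at 1.06 and 1.35. Both fits take these values from the same cultured arrays, so they are no separate check. PAPPA, the metalloprotease that cuts IGFBP4, had 58.7, 60.1 and 23.1 against 61.8, 59.6 and 43.5. STC1, stanniocalcin, was above the floor only in growth plate at day 20, at 109.

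ADAM9, a membrane metalloprotease, had the widest tissue difference of the list, at 596, 448 and 542 for growth plate, against 291, 262 and 175 for articular. Its tissue difference was 1.15 ± 0.29, with a limma adjusted p of 0.402. A second ADAM9 probe set was also higher in growth plate at all 3 stages, at 250.3, 850.1 and 558 against 104, 439 and 194. It was the brighter one in the fit without the native growth plate array and in that without the native articular array. Its tissue difference was 1.24 in both, taken from the same cultured arrays, so they are no separate check. The third, at 74.6, 139.7 and 146 against 104, 74.2 and 65.9, was lower in growth plate in native tissue. FOXO1, a transcription factor held in check by IGF signalling through AKT, had 389.8, 325 and 260.3 against 627, 299 and 320.1. Its culture difference was -0.72 ± 0.30 with a limma adjusted p of 0.263. Without the native growth plate array it was -1.02 with a limma adjusted p of 0.0386, and 21.1% of genes were called there. In that fit the culture difference was also called for PRSS23 (1.19, limma adjusted p 0.0148) and for ADAM9 on its second probe set (1.49, limma adjusted p 0.00679). Without the native articular array the ADAM9 value was 1.46 with a limma adjusted p of 0.0407, beside 3.36% of genes called. On the ADAM9 probe set used with all 6 arrays, the culture difference was -0.36 with a limma adjusted p of 0.543.

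The genes most like each member over the 6 arrays were ranked by Pearson's r of log2 signals among 875 tested genes whose signals spanned at least 4-fold. IGF2 was most like CDH13, GRK5 and TMEM106A, with r of 0.972, 0.959 and 0.949. CDH13, a cadherin anchored in the membrane, gave 138, 60.2 and 67.7 for growth plate, against 312, 276 and 585 for articular. IGFBP6 was most like FST, EPB41L1 and PPARD, with r of 0.962, 0.946 and 0.943. FST, the activin inhibitor follistatin, had 252, 81.6 and 47.8 against 49.7, 116 and 148. IGF1 and IGFBP2 had the same 3 nearest genes, CSDC2, COL5A3 and NR4A3, with r of at least 0.989. Those genes were likewise near or under the floor outside day 20, so their likeness rests largely on the day 20 articular array, where they had 156, 217 and 663. IGFBP5 and IGFBP1 were least matched. IGFBP5 had TMEM98 at 0.868, DCN at 0.822 and TAGLN at 0.820, and IGFBP1 had CHTF18 at 0.868, APITD1 at 0.863 and GLIPR1 at 0.863. IGFBP1 was above the floor only in the articular cultures, at 44.7 and 36.5, so its likeness rests largely on the day 10 articular array. With 6 points that share their arrays, these are descriptions and were not tested.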

How the data were processed

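Total RNA, 100 ng a sample, was labelled by the Affymetrix Two-Cycle protocol and hybridised to 1 array per group, per the labels. The deposited values are linear signal intensities; the submitters' processing notes name GCOS 1.4. Expression settings, scaling target and detection calls are not given in the sources used here. The highest trimmed mean of an array was 1.00005 times the lowest, and no further normalization was applied.

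After 124 control probe sets were left out, signals were raised to the floor, and log2 was taken. Of 23999 probe sets, 10069 had 1 gene symbol, 198 had several and 13732 had none. Of these, 9961 were matched to a current RefSeq gene. Each of 6765 genes kept its brightest probe set, and 5601 above the floor on at least 2 arrays were fitted with limma 3.58.1 (R 4.3.3), using an intensity trend and Benjamini-Hochberg adjustment over all of them. Tissue and stage were additive terms, with 2 residual degrees of freedom and a prior of 3.74. The interaction fit, added after seeing the data, had a prior of 2.33. Calls needed an adjusted p under 0.05 and 2-fold. The fits were tested on simulated data with less noise than these arrays, which shows nothing of their power here.

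Named were all members, listed receptors and ligand-handling genes, the 4 other list genes of largest difference, and the 3 genes most like each member. The members and lists were chosen with earlier results of these data known. Alternatives were 2 normalizations, floors at the 25th and 60th percentiles, a pseudocount of 16, 2 filters, 2 ways of treating probe sets, no trend, and leaving out each array.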

Additional observations from a re-analysis of the deposited data

Results flagged for a closer look

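Among the tested members and the tested pathway genes named, IGFBP6 alone had both cultures of 1 tissue below native and both cultures of the other tissue above it. Both growth plate cultures lay below native growth plate cartilage and both articular cultures above native articular cartilage, a log2 difference between the culture responses of -2.92 with a limma adjusted p of 0.542. Over the alternatives, including those that leave out 1 cultured array, it ran from -3.21 to -2.63, with adjusted p between 0.225 and 0.854.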

How the results depend on the processing

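The alternatives that keep all 6 arrays turned no member's direction in the 3 limma contrasts, and called no member or pathway gene. Over those alternatives the IGF2 tissue difference ran from -2.25 to -0.68, with limma adjusted p from 0.100 to 0.587. The smallest came with the mean of all its probe sets, those at or near the floor included. The number of all genes called between tissues, 3 in the report, was 6 with quantile normalization, 8 with median centring, 5 and 6 with floors at the 25th and 60th percentile, 6 with the pseudocount, 0 with no filter or a filter on all 6 arrays, and 1 with the mean of probe sets or no trend. Between culture and native, 0 in the report, it was 9 with median centring, 5 with the 60th percentile floor, 4 with the pseudocount, 3 with the filter on all 6 arrays and 2 with every probe set. Leaving out each array in turn, the counts ran from 2 to 153 between tissues, 7 to 1176 for culture and 0 to 513 for days. Members called ran from 0 to 1, 0 to 2 and 0 to 2, and pathway genes from 0 to 1, 0 to 4 and 0 to 2. The member and pathway calls all came in the fits without a native array, where the lone native array is taken to vary as the other groups do. Leaving out arrays, the IGFBP6 difference ran from -0.61 to 0.96 between tissues, -1.71 to 1.21 for culture and -1.25 to 0.53 for days, and the IGFBP5 day difference from -0.12 to 2.89. Both ends of the IGFBP6 culture range came from fits with 1 native array, and so from 1 tissue each. Why the values moved was otherwise not tested. The additive fit compares the tissues within each stage; no replicate block could be added because each group has 1 array. An interaction fit could not be made without a native array; without the filter it called 38 of 6765 genes. The floor limits IGF1, IGFBP1 and IGFBP2, and the number of arrays limits the precision.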
